A study of Homo sapiens with 12 samples.

Results

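RKO is an established human colorectal carcinoma line, and its answer to 5-fluorouracil (5-FU) alone was read here from 6 Affymetrix HG-U133A 2.0 arrays: 3 arrays of cells given 5-FU at 10 µg/mL (76.8 µM) for 24 h and 3 arrays of control cells. The series holds 12 arrays in 4 groups of 3. The other groups received thymoquinone (TQ) at 20 µM, alone or together with 5-FU. They enter the comparison through the estimate of the spread, the shared normalization and the choice of the brightest probe set of a gene. The labels describe the controls as untreated, whereas the methods of the study state that they received an equivalent amount of DMSO. If they were untreated, an effect of a solvent cannot be told apart from that of 5-FU. The 5-FU and control cells were otherwise handled alike, as RKO cultures in 6-well plates, with no transgene or edited allele. The labels do not say which arrays came from separate cultures, so the p-values rest on a spread between arrays that may be technical.

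5-FU is a pyrimidine analogue that cells turn into fluorinated nucleotides. One of them blocks thymidylate synthase and so starves DNA synthesis of thymidine, and others are built into RNA and DNA, where they disturb rRNA maturation and call up base excision and mismatch repair. Both kinds of injury call up the DNA damage response, in which genes of cell cycle arrest, repair and cell death are switched on.

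All 22215 probe sets that are not array controls were tested, and they stood for 11963 genes, each of which was represented by whichever of its probe sets was brightest on average. Values are log2 signals, and a difference is a log2 fold change from limma with its standard error (± SE). The words rose and fell are kept for genes whose p-value, adjusted by Benjamini-Hochberg over all probe sets, was under 0.05. With 5-FU 517 genes (4.32%) were higher and 355 (2.97%) were lower, of which 237 (1.98% of all genes) were at least 2-fold higher and 78 (0.652%) at least 2-fold lower. All 3 5-FU arrays lay above all 3 controls for 1704 genes (14.2%) and below them for 1367 (11.4%). The median difference over all genes was 0.091 on the log2 scale.

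5-FU replicate 3 stood apart from the other 5-FU arrays. The mean correlation of its probe sets with those of its replicates was 0.911, against at least 0.997 among the controls, and the array nearest to it was a TQ+5-FU array. Without it, 986 genes (8.24%) were higher and 899 (7.51%) lower, with 278 (2.32%) and 92 (0.769%) past 2-fold, and the median over all genes was -0.0072. Counts without replicate 3 that are given for gene lists below stand against these shares of 8.24% and 7.51%. All 517 genes that rose with every array included, and 353 of the 355 that fell, were called in the same direction without it. The counts also depended on the controls: they were 245 higher and 148 lower without control replicate 1, 258 and 169 without control replicate 2, and 315 and 167 without control replicate 3. A fit to the 6 arrays of this comparison alone called 82 genes (0.685%) higher and 21 (0.176%) lower, 81 (0.677%) and 17 (0.142%) past 2-fold, all among the genes above.

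GREB1, an oestrogen-regulated gene, ELAPOR1, a membrane protein gene linked to endosomes and lysosomes, and RNF19B, a ubiquitin ligase gene, were among the 20 largest increases beside genes of the DNA damage response. ELAPOR1 read 3.72, 3.66 and 3.65 in the control arrays and 6.28, 6.73 and 6.95 with 5-FU, a rise of 2.98 ± 0.21 (adjusted p = 3.9e-05). No 5-FU array came near the controls. RNF19B went from 8.63, 8.74 and 8.86 to 11.06, 11.12 and 11.53, a rise of 2.49 ± 0.14 (adjusted p = 1.2e-05), and its other probe set rose as well. PRDM1, a transcriptional repressor, rose by 2.22 ± 0.18 (adjusted p = 1.1e-04). KANK3, ASTN2 and TSGA10 rose by 2.40, 2.43 and 2.47, and for TSGA10 the value in replicate 3 (6.44) lay below those of replicates 1 and 2 (7.21 and 7.50) but above every control.

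Among the 20 largest decreases, most were deeper in replicate 3. C2CD2 read 12.70, 12.65 and 12.59 in the controls and 11.12, 11.002 and 9.85 with 5-FU, so that all treated arrays were lower and replicate 3 the lowest. The log2 fold change was -1.99 ± 0.30 (adjusted p = 0.0029) and -1.59 without replicate 3. MAP1LC3C, a member of the LC3 family of autophagy proteins, behaved more evenly: it read 11.99, 12.02 and 11.95 in the controls and 10.24, 10.37 and 10.57 with 5-FU, a change of -1.59 ± 0.11 (adjusted p = 2.8e-05). TBL1X, which encodes a subunit of corepressor complexes, changed by -1.58 ± 0.11, and all 4 of its other probe sets fell too. ANKRD11, a chromatin regulator, and URB1, a nucleolar protein, each fell by 1.52, with -1.28 and -1.21 as their log2 fold changes without replicate 3.

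**Figure D1:**
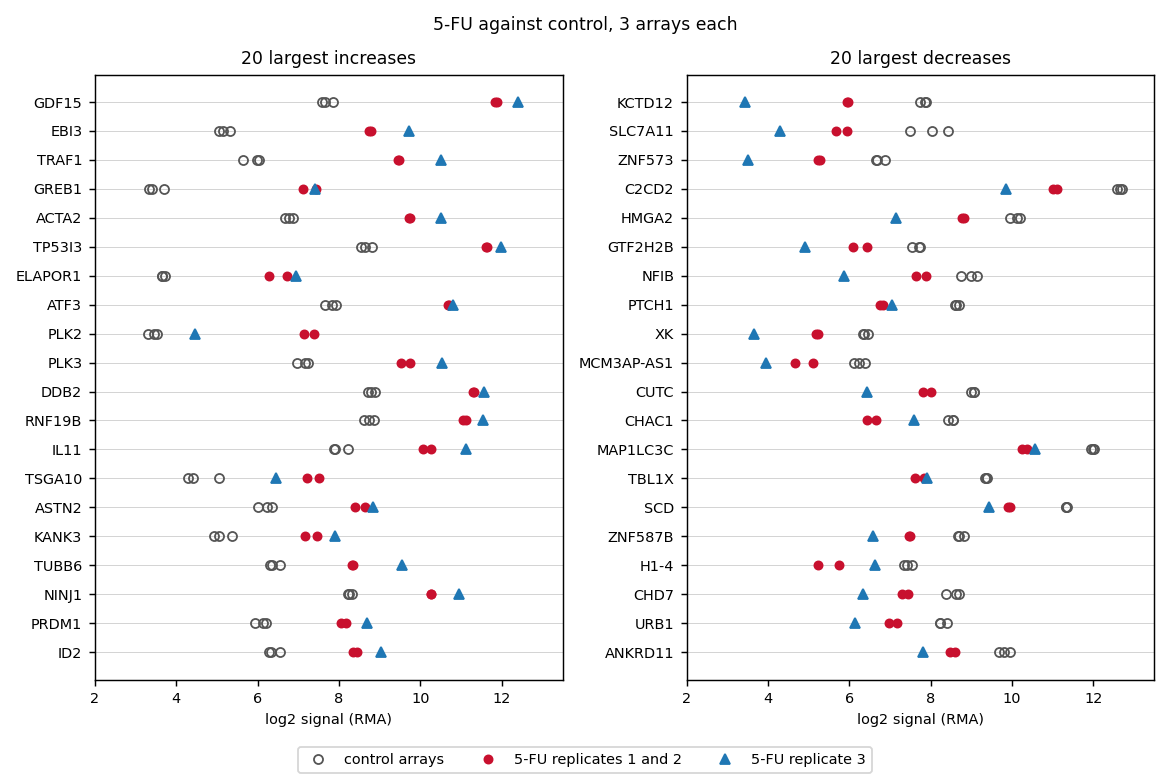
Log2 signal (RMA, horizontal axis) of the 20 genes with the largest increases (left) and decreases (right) past the threshold, with an open circle for each control array, a red dot for 5-FU replicates 1 and 2 and a blue triangle for 5-FU replicate 3. No treated array overlaps the controls for any of these genes, which is how they were chosen, and in PLK2 replicate 3 (4.47) is closer to the controls than to replicates 1 and 2.

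Damage response genes that arrest the cell or end the response moved together. Of 17 measured genes on this list, 13 rose and none fell (76.5% higher, against 4.32% of all genes), and the median log2 fold change was 1.34, against 0.091 over all genes. Without replicate 3 the count was 15, with a median of 1.39. MDM2, a ubiquitin ligase that ends the response, rose by 1.58 ± 0.20 (adjusted p = 0.0014), from 7.04, 6.69 and 6.62 to 8.31, 8.60 and 8.19. All 5-FU arrays lay above the controls, replicate 3 the lowest of them. PPM1D, a phosphatase that does so too, rose by 1.61 ± 0.39, and PHLDA3, an inhibitor of AKT, by 2.18 ± 0.25. SFN, the 14-3-3 sigma protein that holds cells in G2, went from 12.05, 12.12 and 12.22 to 13.36, 13.39 and 13.66, a rise of 1.34 ± 0.12 (adjusted p = 1.7e-04). GADD45A, another inhibitor of the G2 to M step, rose by 0.51. CCNG1 (cyclin G1) read 11.35, 11.19 and 11.09 in the controls and 12.67, 12.52 and 9.37 with 5-FU, with replicate 3 below every control. It did not pass with all arrays (adjusted p = 0.82) and passed without that array (adjusted p = 0.0093).

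Of 13 measured damage response genes of repair, redox control and metabolism, 7 rose and none fell (53.8% higher), with a median of 1.06. DDB2 and XPC, which recognise damage for nucleotide excision repair, rose by 2.60 ± 0.11 (adjusted p = 2.2e-06) and 1.06 ± 0.15 (adjusted p = 0.0020). DDB2 read 8.78, 8.72 and 8.89 in the controls and 11.33, 11.30 and 11.56 with 5-FU, so that the arrays of each group lay close together. SESN1, a sestrin that restrains mTOR signaling, read 7.71, 7.61 and 7.59 in the controls and 10.42, 10.29 and 8.26 with 5-FU, so that replicate 3 kept only part of the rise of 2.02. TIGAR, which lowers glycolytic flux, was lower in replicate 3 (8.72) than in every control, and passed only without that array (log2 fold change 1.96, adjusted p = 5.1e-04).

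Among damage response genes of cell death 5 of 15 rose and none fell with all arrays (33.3% higher), and 8 rose and 1 fell without replicate 3. PIDD1, the scaffold of the PIDDosome that activates caspase-2, rose from 8.25, 8.39 and 8.49 to 10.003, 10.01 and 10.67, by 1.85 ± 0.20 (adjusted p = 4.5e-04). PERP, a membrane protein of apoptosis, rose by 0.76 ± 0.16. PMAIP1 (NOXA), a BH3-only protein, read 10.35, 10.31 and 10.24 in the controls and 11.88, 11.72 and 10.14 with 5-FU. It was thus higher in replicates 1 and 2 only, and its adjusted p was 0.20 with all arrays and 2.4e-04 without replicate 3. TRIAP1, an inhibitor of apoptosis, read 11.86, 11.90 and 10.57 against controls of 10.51, 10.54 and 10.57, with replicate 3 at the control level. Of 15 damage response genes of the cell surface and secretion, 7 rose and none fell (46.7% higher), with and without replicate 3. HBEGF, an EGF receptor ligand, rose by 1.26 and CD82, a tetraspanin, by 1.12.

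NF-kB is held in the cytoplasm by inhibitors that are its own targets, so that its activity is read from feedback genes and chemokines. Of 38 measured genes, 17 rose and 1 fell (44.7% and 2.63%), with a median of 0.83, and 25 rose and 1 fell without replicate 3. RELB and NFKB2, the subunits of the alternative pathway, rose by 1.54 ± 0.29 (adjusted p = 0.010) and 1.57 ± 0.28 (adjusted p = 0.0083). RELB read 6.86, 6.74 and 7.04 in the controls and 8.02, 8.05 and 9.19 with 5-FU, so that each 5-FU array was above each control and replicate 3 the highest. The gene that fell was TRAF3 (log2 fold change -0.69), an adaptor that restrains the alternative pathway. CXCL1, CXCL2 and CXCL3, chemokines that attract neutrophils, rose by 1.45, 1.48 and 1.20. These paralogues are close in sequence, so their probe sets may share signal. CXCL2 went from 5.37, 5.56 and 5.57 to 6.77, 6.96 and 7.20. CD83, a surface protein, and CCL20, a chemokine, rose by 1.73 and 0.75. BIRC2, an inhibitor of apoptosis, read 10.90, 10.75 and 8.39 with 5-FU and 9.45, 9.31 and 9.17 in the controls, and passed only without replicate 3 (adjusted p = 0.0076).

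The 250 bases before the start of NF-kB targets that rose are shown because 9 of the 14 risen list members with a promoter sequence held the NF-kB consensus there, as did 17 of 33 members in all and 11.6% of 9563 promoters of measured genes. These genes were listed as known targets, so the share describes the list and was not tested. The sequences are from RefSeq (GRCh38.p14), and capitals mark the match on either strand: TNFAIP3, which encodes the deubiquitinase A20, at chr6:137867009-137867258 (plus strand) with 2 matches, EBI3, a subunit of interleukin-27 and interleukin-35, at chr19:4229273-4229522 (plus strand), and CXCL2 at chr4:74099196-74099445 (minus strand), where 2 matches on opposite strands overlap.
TNFAIP3: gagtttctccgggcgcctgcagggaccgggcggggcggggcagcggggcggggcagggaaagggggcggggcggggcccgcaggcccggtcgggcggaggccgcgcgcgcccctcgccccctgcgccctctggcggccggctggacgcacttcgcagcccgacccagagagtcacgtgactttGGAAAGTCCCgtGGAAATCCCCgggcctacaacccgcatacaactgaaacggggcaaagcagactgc
EBI3: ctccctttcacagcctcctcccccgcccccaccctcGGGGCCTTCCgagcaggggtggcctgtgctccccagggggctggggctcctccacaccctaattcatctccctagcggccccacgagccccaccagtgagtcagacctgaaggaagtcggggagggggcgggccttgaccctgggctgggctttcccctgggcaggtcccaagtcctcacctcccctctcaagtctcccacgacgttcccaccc
CXCL2: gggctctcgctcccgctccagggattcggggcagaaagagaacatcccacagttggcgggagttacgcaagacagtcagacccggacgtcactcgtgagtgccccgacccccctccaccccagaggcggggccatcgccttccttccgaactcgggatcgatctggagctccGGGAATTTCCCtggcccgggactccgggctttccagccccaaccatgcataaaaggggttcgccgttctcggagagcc

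Interferon-stimulated genes and genes of antigen presentation rose without any fall: 16 of 57 measured genes were higher and none lower with all arrays (28.1% higher), and 21 were higher and 1 lower without replicate 3. The median was 0.44 over the list. IRF7 and IRF1, transcription factors of the interferon response, rose by 2.06 ± 0.23 (adjusted p = 5.9e-04) and 1.60 ± 0.21 (adjusted p = 0.0015). IRF7 read 7.11, 7.24 and 7.19 in the controls and 8.79, 9.17 and 9.75 with 5-FU. TAP1, a subunit of the transporter that brings peptides to MHC class I, read 9.25, 9.22 and 9.44 in the controls and 11.07, 11.13 and 11.69 with 5-FU, and the 5-FU arrays were well clear of the controls. Its rise was 1.99 ± 0.17 (adjusted p = 1.5e-04). PSMB8 and PSMB9, catalytic subunits of the immunoproteasome that cuts such peptides, rose by 1.01 and 1.09, and PSMB5, the constitutive counterpart of PSMB8, by 0.37. HLA-B, HLA-F, HLA-G and HLA-C rose by 0.84, 0.62, 0.60 and 0.47. Class I genes are near-identical over much of their length, so these probe sets cannot be taken as separate measurements. OAS3 and MX1, antiviral effectors, rose by 0.92 and 0.59, and TRIM22, another antiviral gene, read 6.23, 5.69 and 3.77 with 5-FU against 3.19, 3.52 and 3.61 in the controls, passing only without replicate 3 (adjusted p = 7.5e-04).

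The core of the interferon-stimulated response element was searched on both strands as TTTC, any 2 bases and TTTC. It lay in the 250 bases before the start of 22 of 42 members with a promoter sequence, against 2.56% of all promoters. These members were listed as known interferon-stimulated or antigen presentation genes, so the share describes the list and was not tested. Among the 15 of them that rose it was present in 7. The promoters of the 3 such genes with the smallest adjusted p are printed with each match in capitals, and matches may overlap: TAP1 at chr6:32853705-32853954 (minus strand), OAS3 at chr12:112938224-112938473 (plus strand) and ISG15, a ubiquitin-like modifier, at chr1:1013247-1013496 (plus strand).
TAP1: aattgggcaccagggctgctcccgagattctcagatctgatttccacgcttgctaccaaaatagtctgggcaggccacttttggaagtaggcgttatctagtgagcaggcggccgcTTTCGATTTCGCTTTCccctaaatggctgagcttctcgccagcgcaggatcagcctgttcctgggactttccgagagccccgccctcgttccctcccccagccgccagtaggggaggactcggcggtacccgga
OAS3: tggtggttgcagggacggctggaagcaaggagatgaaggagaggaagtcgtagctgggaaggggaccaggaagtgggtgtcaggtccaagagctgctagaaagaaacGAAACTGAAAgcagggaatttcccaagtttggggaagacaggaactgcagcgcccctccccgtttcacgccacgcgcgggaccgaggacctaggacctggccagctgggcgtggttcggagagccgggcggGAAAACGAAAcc
ISG15: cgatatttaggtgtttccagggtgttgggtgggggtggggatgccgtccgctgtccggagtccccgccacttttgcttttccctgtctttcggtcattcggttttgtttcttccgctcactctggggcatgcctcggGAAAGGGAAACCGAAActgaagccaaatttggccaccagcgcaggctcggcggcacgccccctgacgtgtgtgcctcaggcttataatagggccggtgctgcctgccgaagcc

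Among 53 cytokines, chemokines and receptors, 14 rose and 2 fell (26.4% and 3.77%), and 17 rose and 4 fell without replicate 3. IL11, a cytokine of the interleukin-6 family, went from 7.91, 7.88 and 8.21 to 10.07, 10.27 and 11.13, by 2.49 ± 0.31 (adjusted p = 0.0012). TNFSF9, the ligand of 4-1BB, rose by 2.01 ± 0.23, and TNFRSF14, the herpesvirus entry mediator, by 1.79 ± 0.21. CSF1, the growth factor of macrophages, rose by 1.64 ± 0.18 and read 8.88, 9.07 and 9.59 against 7.52, 7.52 and 7.60, but none of its 3 other probe sets passed. IL6R and VEGFA fell, with log2 fold changes of -0.79 and -0.65.

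The integrated stress response lowers global translation and makes the transcription factor ATF4, which turns on amino acid transporters, aminoacyl-tRNA synthetases and asparagine synthetase. More of its genes fell than rose. Of 44 measured genes, 11 fell and 1 rose (25% and 2.27%, against 2.97% and 4.32% of all genes), with a median of -0.48, and 17 fell and 2 rose without replicate 3. ATF4 itself read 13.21, 13.15 and 13.19 in the controls and 12.02, 12.01 and 12.18 with 5-FU, so that the 3 treated arrays were nearly level and far below the controls. It fell by 1.12 ± 0.099 on the log2 scale (adjusted p = 1.6e-04). SLC7A5 (LAT1), a transporter of neutral amino acids, went from 11.77, 11.80 and 11.77 to 9.89, 10.11 and 10.91, a change of -1.47 ± 0.23 (adjusted p = 0.0039). SLC7A1, a carrier of cationic amino acids, changed by -0.76. CHAC1, which degrades glutathione, fell by 1.62 ± 0.28, less in replicate 3 (7.58) than in the others (6.66 and 6.42).

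ASNS, which makes asparagine, read 11.48, 11.30 and 11.17 in the controls and 10.25, 10.34 and 9.53 with 5-FU, and its log2 fold change was -1.28 ± 0.19 (adjusted p = 0.0030). The synthetases YARS1, AARS1, CARS1 and WARS1 fell, with log2 fold changes of -0.96, -0.90, -0.59 and -0.49, and CEBPG, the dimer partner of ATF4, fell by 0.69. The gene that rose was ATF3, a stress-induced repressor and activator, at 10.72, 10.67 and 10.80 with 5-FU against 7.93, 7.66 and 7.84 in the controls. DDIT3 (CHOP), which stands downstream of ATF4, read 10.02, 9.98 and 8.39 with 5-FU against 9.41, 9.20 and 9.10, so that replicate 3 lay below and the others above the controls (adjusted p = 0.73). Of 28 genes of the unfolded protein response, which shares this branch, 1 rose and 1 fell. That was 3.57% each, near the shares of 4.32% and 2.97% among all genes. CREB3 rose (log2 fold change 1.13), and HERPUD1 (-0.68), a component of protein degradation at the endoplasmic reticulum, fell. Without replicate 3 the counts were 2 and 3.

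The C/EBP-ATF response element, to which ATF4 binds with a C/EBP partner, was searched as TGATGNAA on both strands. It lay in the 250 bases before the start of 6 of 37 list members with a promoter sequence, against 1.98% of all promoters. These members were listed as genes of the integrated stress response, so the share describes the list and was not tested. Among the 9 of these members that fell it was present in 3, AARS1, ASNS and CHAC1, and it was also present in ATF3, the member that rose, so the same letters stood before genes that moved in opposite directions. The 3 with the smallest adjusted p are shown, ATF3 at chr1:212565157-212565406 (plus strand), AARS1 at chr16:70289507-70289756 (minus strand) and ASNS at chr7:97872409-97872658 (minus strand), with the match in capitals.
ATF3: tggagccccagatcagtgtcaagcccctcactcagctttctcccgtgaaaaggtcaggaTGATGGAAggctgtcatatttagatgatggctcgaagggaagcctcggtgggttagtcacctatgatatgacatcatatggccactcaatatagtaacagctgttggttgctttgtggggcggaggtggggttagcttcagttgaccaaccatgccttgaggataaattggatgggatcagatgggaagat
AARS1: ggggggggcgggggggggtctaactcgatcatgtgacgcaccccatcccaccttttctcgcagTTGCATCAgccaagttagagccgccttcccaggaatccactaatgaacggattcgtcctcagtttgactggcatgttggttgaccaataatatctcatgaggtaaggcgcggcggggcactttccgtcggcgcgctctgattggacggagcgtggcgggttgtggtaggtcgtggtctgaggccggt
ASNS: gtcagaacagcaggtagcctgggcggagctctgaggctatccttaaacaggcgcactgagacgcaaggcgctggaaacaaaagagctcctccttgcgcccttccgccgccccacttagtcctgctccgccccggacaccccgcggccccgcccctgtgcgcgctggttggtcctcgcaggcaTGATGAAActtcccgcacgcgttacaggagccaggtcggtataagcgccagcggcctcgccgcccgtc

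Nucleolar factors of ribosome biogenesis, which transcribe, cut and fold rRNA, gave falls and no rise. Of 45 measured genes, 11 fell and none rose (24.4% lower), with a median of -0.69. Without replicate 3, 22 fell and none rose, with a median of -0.42, so more genes passed while the median came closer to 0. In 25 of the 45 all 5-FU arrays were below all controls, against 11.4% of all genes. NAT10, which acetylates cytidines of rRNA, read 10.91, 10.89 and 10.87 in the controls and 9.65, 9.66 and 9.90 with 5-FU, a change of -1.16 ± 0.11 (adjusted p = 2.5e-04). URB2, which acts in assembly of the large subunit, changed by -1.001 ± 0.10, and POLR1B, the second largest subunit of RNA polymerase I, by -0.67 ± 0.11 (adjusted p = 0.0057). NOLC1, a nucleolar chaperone of small nucleolar RNPs, went from 11.22, 11.14 and 11.06 to 10.40, 10.30 and 9.34, and both of its other probe sets fell. NCL (nucleolin) read 11.78, 11.77 and 9.44 with 5-FU against 12.25, 12.09 and 11.92, with replicate 3 far below the others, and did not pass (adjusted p = 0.31).

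Pseudouridine synthases and other RNA-modifying enzymes are of interest because 5-fluorouridine in RNA can trap them. Of 22 measured genes, 1 fell with all arrays (4.55%) and 7 fell without replicate 3, among them PUS1 (-0.97) and RPUSD2 (-1.03). The gene that fell with all arrays was GAR1, a core protein of the box H/ACA particles that guide pseudouridylation. It read 10.63, 10.66 and 10.64 in the controls and 9.93, 9.96 and 9.64 with 5-FU (log2 fold change -0.80 ± 0.11). None rose in either fit. EXOSC7, a subunit of the RNA exosome, which removes faulty rRNA, changed by -0.61. In contrast, none of the 52 cytosolic ribosomal protein genes passed, and their median was 0.0020. Of 47 mitochondrial ribosomal protein genes, 1 rose, MRPL49 (1.03), and 2 fell, MRPL19 (-0.58) and MRPS27 (-0.56). These shares were 2.13% and 4.26%, and without replicate 3 the counts were 4 and 12.

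**Figure D2:**
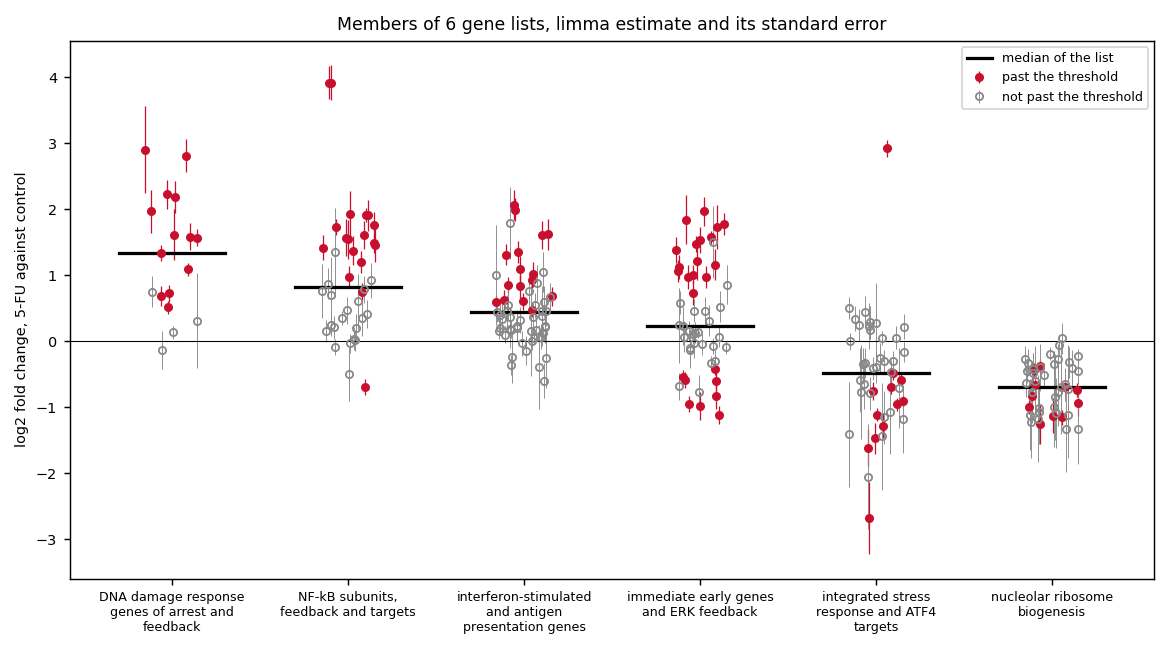
Log2 fold change of 5-FU against control (limma, vertical axis, with bars of 1 standard error) for every measured member of 6 gene lists, with a black line at the median of each list. Members past the threshold (red) lie above 0 for 13 of 17 damage response genes of arrest and below 0 for 11 of 45 genes of ribosome biogenesis, and the integrated stress response holds 11 below 0 and ATF3 far above it.

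The gene groups that answer growth factors moved in both directions. Of 49 immediate early genes and feedback regulators of ERK signaling, 16 rose and 8 fell (32.7% and 16.3%), and 18 rose and 12 fell without replicate 3. AP-1 subunits rose: FOS by 1.96 ± 0.22 (adjusted p = 5.8e-04), FOSL2 by 1.73, JUNB by 1.53 and JUND by 1.38. FOS read 6.94, 7.17 and 7.34 in the controls and 8.79, 8.87 and 9.68 with 5-FU. FOSL1, a further subunit, fell by 0.83. DUSP14, DUSP8, DUSP1, DUSP10 and DUSP7, phosphatases that switch off MAP kinases, rose by 1.47, 1.21, 1.12, 1.003 and 0.73. SPRY4, SPRY2 and SPRED2, inhibitors of the pathway upstream of ERK, fell, with log2 fold changes of -1.12, -0.59 and -0.54. SPRY4 read 11.89, 11.88 and 11.86 in the controls and 10.57, 10.60 and 11.10 with 5-FU, a change of -1.12 ± 0.14 (adjusted p = 0.0010). For all of these phosphatases the 5-FU arrays lay above the controls, and for all 3 inhibitors they lay below.

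MYC, a driver of cell growth and of ribosome production, read 12.82, 12.76 and 12.81 in the controls and 11.66, 11.73 and 12.11 with 5-FU, so that every 5-FU array was lower. It fell by 0.96 ± 0.12 (adjusted p = 0.0012). CCND1 (cyclin D1), which opens the G1 phase, went from 9.57, 9.64 and 9.82 to 8.32, 8.55 and 8.94, by -1.07 ± 0.17 (adjusted p = 0.0041). E2F5, a repressive E2F factor, fell by 1.09 ± 0.11. CDKN1C (p57), an inhibitor of cyclin-dependent kinases, rose by 1.53 ± 0.31 (adjusted p = 0.014), from 6.92, 7.15 and 7.24 to 8.10, 8.39 and 9.42, and 3 of its 4 other probe sets rose too. In all, 4 of 40 genes of this G1 list rose and 3 fell (10.0% and 7.50%), and 7 rose and 8 fell without replicate 3.

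CCNE2 (cyclin E2), which drives entry into S phase, did not behave alike in the 5-FU arrays. It read 9.29, 9.19 and 8.80 in the controls, 11.36 and 10.87 in 5-FU replicates 1 and 2, and 7.37 in replicate 3, so that it was above every control in 2 arrays and below every control in the other. The log2 fold change was 0.77 ± 0.87 (adjusted p = 0.65), and 2.02 without replicate 3 (adjusted p = 0.013). MYBL1, a relative of the cell cycle regulator MYB, showed the same split, with 8.62, 8.22 and 5.57 against 6.11, 5.85 and 5.61. Of 70 genes of mitosis, 2 rose and 2 fell (2.86% each), and 9 rose and 6 fell without replicate 3. TRIP13, which takes apart the mitotic checkpoint complex, was among those that fell (-0.57). The list median was -0.25 with all arrays and 0.053 without replicate 3, whose own median against the controls was -0.90. Of 50 genes of DNA replication, 1 rose and 2 fell (2.0% and 4.0%), against 6 and 7 without replicate 3. The member that rose was CHAF1B (0.42), a histone chaperone. The list median was -0.72 in replicate 3 and 0.099 and 0.052 in the others.

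Few enzymes that activate, bind or degrade 5-FU passed the test. TYMS (thymidylate synthase), the target of the drug, read 12.54, 12.54 and 12.57 in the controls and 12.60, 12.62 and 12.55 with 5-FU, a difference of 0.042 ± 0.087 (adjusted p = 0.80). The values of the groups overlapped. Of 33 measured genes of 5-FU metabolism, folate and thymidylate synthesis, 1 rose and 1 fell (3.03% each), close to the share among all genes. The member that fell was DHODH, an enzyme of de novo pyrimidine synthesis, with 8.40, 8.43 and 8.68 in the controls and 7.31, 7.50 and 8.07 with 5-FU, a change of -0.88 ± 0.19 (adjusted p = 0.023). Its 2 other probe sets did not pass. Without replicate 3, 4 rose and 8 fell, among them CAD, which starts pyrimidine synthesis (-0.81), SLC29A1, a nucleoside carrier (-0.82), and SLC19A1, the reduced folate carrier (-1.04). CAD read 9.73, 9.78 and 9.83 in the controls and 8.85, 9.09 and 9.78 with 5-FU, and SLC29A1 read 9.60, 9.60 and 9.67 and 8.68, 8.93 and 9.87. In these genes and in SLC19A1 replicate 3 lay within or above the range of the controls.

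Base excision and mismatch repair, which handle uracil and fluorouracil in DNA, gave 2 falls and no rise among 20 genes (10.0% lower, against 2.97% of all genes). Without replicate 3 there were 2 falls and 1 rise, against 7.51% lower and 8.24% higher over all genes. The paper describes RKO as a line with microsatellite instability, and mismatch repair activity was not measured here. LIG3, which seals nicks, read 8.54, 8.46 and 8.47 in the controls and 7.58, 7.69 and 7.66 with 5-FU, a change of -0.85 ± 0.091 (adjusted p = 4.8e-04), and its other probe set fell too. UNG, the main uracil glycosylase, was at -0.30 ± 0.11 (adjusted p = 0.15). In the checkpoint and strand break repair list 1 of 54 rose and 2 fell (1.85% and 3.70%), near the shares of 4.32% and 2.97% among all genes. FANCF and XPA fell, with log2 fold changes of -0.62 and -0.64. The ABC transporters, which can carry drugs out of cells, also lay near those shares, with 1 rise and 2 falls among 31 (3.23% and 6.45%). ABCG2 rose (5.10, 4.80 and 5.12 to 6.18, 6.32 and 5.98, log2 fold change 1.15 ± 0.14), and ABCC1 and ABCF2 fell, with log2 fold changes of -0.43 and -0.64.

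**Figure D3:**
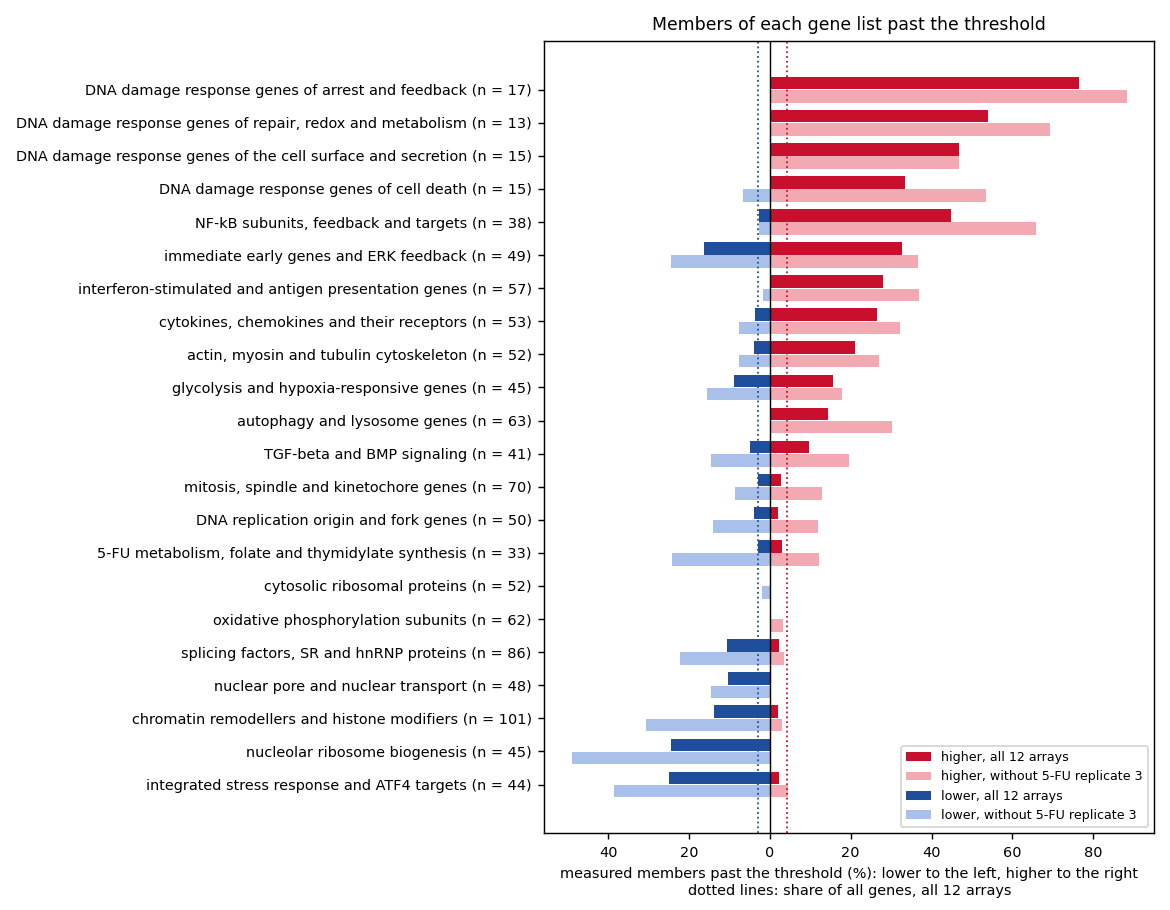
Share of measured members of 22 gene lists past the threshold (horizontal axis, %), with genes that fell to the left and genes that rose to the right, with all 12 arrays (dark) and without 5-FU replicate 3 (pale), and dotted lines at the shares of all genes (4.32% higher, 2.97% lower). From the damage response genes to the cytokines more members rise than fall, in the lowest 5 lists more fall than rise, and no pale bar is shorter than its dark one.

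Chromatin regulators were lower more often than higher, with 14 of 101 falling and 2 rising (13.9% and 1.98%), and 31 falling and 3 rising without replicate 3. SMARCA4 (BRG1), the ATPase of the SWI/SNF complex, read 11.27, 11.25 and 11.28 in the controls and 10.31, 10.45 and 10.79 with 5-FU, a change of -0.75 ± 0.12 (adjusted p = 0.0052), and 5 of its 7 other probe sets fell while 1 had the opposite sign. Its partners SMARCC1 and SMARCC2 fell, with log2 fold changes of -1.42 and -0.66, which became -0.88 and -0.85 without replicate 3. LMNB1 (lamin B1) and LMNA (lamins A and C) moved in opposite directions: LMNB1 read 9.02, 9.14 and 9.03 in the controls and 7.84, 7.99 and 6.95 with 5-FU. LMNA read 9.09, 9.08 and 9.32 in the controls and 10.35, 10.49 and 11.14 with 5-FU. The log2 fold changes were -1.47 ± 0.25 (adjusted p = 0.0066) and 1.49 ± 0.22 (adjusted p = 0.0029). HMGA2, an architectural protein of fetal and tumour cells, fell by 1.85 ± 0.40. Among 43 histone genes 2 rose and 2 fell (4.65% each, against 4.32% higher and 2.97% lower over all genes). Without replicate 3 the counts were 4 and 7. The linker histone H1-4 fell by 1.56 ± 0.34. Histone paralogues share sequence, and most of their mRNAs lack the poly(A) tail from which the label was primed, so these values are uncertain.

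Of 86 splicing factors, 9 fell and 2 rose (10.5% and 2.33%), and 19 fell and 3 rose without replicate 3. Among the falls were genes of hnRNP proteins, which coat nascent transcripts, a group picked out after the values were seen. HNRNPF read 10.93, 10.89 and 10.89 in the controls and 10.13, 10.21 and 9.99 with 5-FU, a change of -0.79 ± 0.10 (adjusted p = 0.0012), and HNRNPM, HNRNPD, HNRNPA0 and HNRNPAB fell, with log2 fold changes of -0.77, -0.70, -0.63 and -0.50. Of 48 genes of the nuclear pore and nuclear transport, 5 fell and none rose (10.4% lower), and 7 fell and none rose without replicate 3. RCC1, which loads Ran with GTP, went from 10.19, 10.08 and 10.13 to 8.83, 8.97 and 9.63, by -0.99 ± 0.21 (adjusted p = 0.018), and NUP93 by -0.63 ± 0.093. The median of the splicing list was -0.15 and -0.19 in 5-FU replicates 1 and 2 and -1.06 in replicate 3, and that of the nuclear pore list -0.16, -0.16 and -1.40. Without replicate 3 the list medians were -0.17 and -0.15, against -0.43 and -0.64 with it. In HEXIM1, which keeps the elongation factor P-TEFb inactive, the arrays were alike, at 9.57, 9.55 and 9.57 in the controls and 10.47, 10.43 and 10.63 with 5-FU, a rise of 0.94 ± 0.11 (adjusted p = 8.2e-04).

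Cytoskeletal genes rose more often than they fell, 11 against 2 of 52 (21.2% and 3.85%), and 14 against 4 without replicate 3. The tubulins TUBB6, TUBB2A, TUBA1A, TUBG1, TUBB3, TUBA4A and TUBB4B rose by 2.34, 1.54, 0.88, 0.75, 0.64, 0.55 and 0.40. Tubulins of a class are close in sequence, so their probe sets may share signal. TUBB6 read 6.37, 6.31 and 6.55 in the controls and 8.35, 8.33 and 9.56 with 5-FU, and replicate 3 was the highest. TAGLN (transgelin) and GSN (gelsolin), which bind actin filaments, rose by 1.93 ± 0.24 (adjusted p = 0.0011) and 1.58 ± 0.19 (adjusted p = 9.2e-04). TUBGCP3, of the complex that nucleates microtubules, and MAP4, which stabilises them, fell, with log2 fold changes of -1.34 and -0.99.

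Inhibitors of differentiation, the direct targets of BMP signaling, rose together: ID2 read 6.34, 6.28 and 6.55 in the controls and 8.34, 8.45 and 9.02 with 5-FU, a rise of 2.21 ± 0.18 (adjusted p = 8.6e-05), and ID3 and ID1 rose by 1.33 ± 0.24 and 1.23 ± 0.25. BAMBI, a decoy receptor of the pathway, rose by 0.83 and SMAD1, its signal transducer, fell by 1.15, with -0.74 without replicate 3. Over the 41 genes of TGF-beta and BMP signaling, 4 rose and 2 fell (9.76% and 4.88%), and 8 rose and 6 fell without replicate 3. Of 26 genes around Hippo signaling, 4 rose and 2 fell (15.4% and 7.69%), and 5 rose and 3 fell without replicate 3. Over all genes the shares were 4.32% and 2.97% with all arrays. CCN2 rose from 6.82, 6.69 and 6.76 to 8.21, 8.37 and 8.40 (1.57 ± 0.10). AMOTL2, TEAD3 and YAP1 rose by 1.25, 0.88 and 0.42. Among the falls AXL, a receptor kinase, was at -0.81 ± 0.10. ZEB1, a repressor of epithelial genes, fell by 1.40 ± 0.30 (adjusted p = 0.020), while CDH1 (E-cadherin) read 3.89, 3.50 and 3.76 in the controls and 3.71, 3.59 and 4.06 with 5-FU.

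Genes of energy and lipid metabolism moved in both directions. Of 45 glycolytic and hypoxia-responsive genes, 7 rose and 4 fell (15.6% and 8.89%), and 8 and 7 without replicate 3. EPAS1 (HIF-2 alpha) read 6.81, 6.85 and 6.99 in the controls and 8.43, 8.52 and 9.01 with 5-FU, a rise of 1.77 ± 0.16 (adjusted p = 1.5e-04), and P4HA2, a collagen prolyl hydroxylase, went from 10.01, 10.07 and 10.05 to 11.06, 11.06 and 11.05. HK2 (hexokinase 2), at the entry of glycolysis, and PDK1, which inhibits pyruvate dehydrogenase, fell, with log2 fold changes of -0.94 and -0.77. SCD, which makes monounsaturated fatty acids, was the deepest fall among 35 lipid genes, from 11.33, 11.34 and 11.33 to 9.95, 9.90 and 9.42, by -1.57 ± 0.14 (adjusted p = 1.9e-04). INSIG1 and ACLY fell, with log2 fold changes of -0.70 and -0.56. With all arrays 3 lipid genes fell (8.57%) and none rose, while without replicate 3 there were 3 rises and 7 falls. None of the 62 subunits of oxidative phosphorylation passed. In 29 of them all 5-FU arrays lay above all controls, against 14.2% of all genes. The list median was 0.13, against 0.091 over all genes. Of 63 autophagy and lysosome genes 9 rose and none fell (14.3% higher), and 19 rose and none fell without replicate 3. MAP1LC3C, which fell, is not on that list. GABARAPL2 went from 11.28, 11.26 and 11.33 to 12.56, 12.59 and 12.39, by 1.22 ± 0.093 (adjusted p = 6.6e-05), and NEU1, a lysosomal sialidase, by 1.59 ± 0.19.

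Most of the remaining lists held more members past the threshold without replicate 3. The shares of all genes were 4.32% higher and 2.97% lower with all arrays, and 8.24% and 7.51% without replicate 3. Of 31 genes under NRF2, the regulator of the antioxidant response, 6 rose and 2 fell (19.4% and 6.45%), and 8 and 4 without replicate 3. AKR1B10, a reductase of carbonyl compounds, rose by 1.58 ± 0.19 and EPHX1, which detoxifies epoxides, by 1.07 ± 0.26. In the Wnt list 3 of 48 rose and 5 fell (3 and 10 without replicate 3), with TLE4, a corepressor of TCF factors, from 6.22, 6.35 and 6.59 to 8.21, 8.30 and 7.85 (1.73 ± 0.16) and LEF1, a factor of that family, at -0.52. Of 21 members of the BCL2 family 3 rose with all arrays (14.3%) and 6 without replicate 3, and none fell. Those that rose with all arrays were BIK, a BH3-only protein, by 1.56 ± 0.27 (adjusted p = 0.0068), and BCL2L1 and BCL2L13 by 0.75 and 0.75. The list of death receptors and caspases had 2 rises and 1 fall among 27 (6 and 1 without replicate 3), with CASP10 at 1.07 and DFFB, the caspase-activated nuclease, at -0.90. SERPINE2, a protease inhibitor, and SDC4, a syndecan of cell adhesion, rose by 1.47 and 1.44 among 49 genes of integrins and matrix (3 higher and 1 lower, and 7 and 1 without replicate 3). With all arrays 2 of 34 heat shock genes were higher and 1 lower, and 5 and 2 without replicate 3. Of 18 metallothioneins and metal carriers none was higher and 2 were lower in both fits. Proteasome subunits (39) went from 3 higher and 0 lower to 8 and 3 without replicate 3, translation factors (43) from 0 and 2 to 2 and 6, and genes of the TCA cycle and mitochondria (48) from 2 and 1 to 3 and 8. KRAB zinc finger genes (132) went from 1 and 2 to 10 and 8, and general transcription factors (73) from 1 and 2 to 9 and 3. Hedgehog and Notch genes (25) went from 0 and 2 to 1 and 5, epithelial and mesenchymal genes (45) from 1 and 2 to 3 and 2, and genes of RNA decay (30) from 1 and 2 to 1 and 5.

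Where a gene had several probe sets, they did not always agree. Among the genes named above that rose or fell, at least 1 other probe set had the opposite sign for TRAF3, SLC7A1, URB1, HK2, HNRNPM, HNRNPD, ABCF2 and SMARCA4, and in the first 5 of these no other probe set passed in the same direction.

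The displaced array had its own pattern. In replicate 3, 2265 genes lay more than 1 log2 unit below the average of replicates 1 and 2 and 779 lay more than 1 above it. HMGN5, a nucleosome-binding protein, read 8.54, 8.16 and 3.90 in the 3 5-FU arrays and 8.12, 8.04 and 7.66 in the controls, and ANXA1 (annexin A1) read 10.26, 10.03 and 5.94 against 9.15, 8.92 and 8.70. At the other end SYN1 read 6.70, 6.86 and 8.27 with 5-FU and 4.96, 5.53 and 5.81 in the controls. The differences from control of replicates 1 and 2 correlated at r = 0.916 over the 11963 genes, and those of replicates 1 and 3 at r = 0.032, each pair sharing the control mean that was subtracted. Genes are not independent replicates, and these values describe the arrays.

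Signal strength and the controls of the chip moved with that displacement. Genes were put in 4 classes of equal size by their mean in the controls. In the dimmest class the median of replicate 3 against the control mean was 0.48, and in the next class 0.63, whereas it was 0.01 and -0.05 in the brighter ones. In the other 5-FU arrays these medians lay between -0.04 and 0.02. Of the 2265 genes more than 1 below, 1817 were in the brighter 2 classes. The spike-in poly-A controls, which are added to the RNA before labelling, read 9.47 on average in replicate 3, against 8.22 and 8.36 in the other 5-FU arrays and 8.50 to 8.97 in the controls. The difference between the 3' and 5' probe sets of ACTB was 0.557 there, below those of 0.624 to 0.729 in the other 5-FU arrays and 0.577 to 0.602 in the controls, and that of GAPDH was 0.063. Apart from a fit with the poly-A signal as a covariate, given below, the part of these differences in the results was not tested. TQ+5-FU replicate 2 deviated from its own replicates in the same way: of the 2265 genes, 2260 (99.8%) were below its replicates in that array, against 32.9% of all genes.

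Markers of other cell types were checked in the same arrays. None of 25 leukocyte, 17 fibroblast or 13 endothelial markers passed in either direction, and their mean log2 signals spanned 4.70 to 4.80, 4.67 to 4.72 and 5.09 to 5.20 in the controls. With 5-FU they reached 5.40, 5.14 and 5.82, in each case in replicate 3. PTPRC (CD45), which defines leukocytes, read 3.85, 3.78 and 4.24 in the controls and 3.85, 4.07 and 4.02 with 5-FU. Of the epithelial markers, KRT18 read 12.11, 11.997 and 12.16 in the controls and 12.44, 12.48 and 12.81 with 5-FU, and KRT18 was the marker of the colorectal epithelium list that rose (1 of 14). EPCAM read 8.99, 9.05 and 9.07 in the controls and 9.55, 9.49 and 8.37 with 5-FU, lower in replicate 3 than in every control. In bulk RNA fewer cells of a kind and less RNA per cell cannot be told apart.

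**Figure D4:**
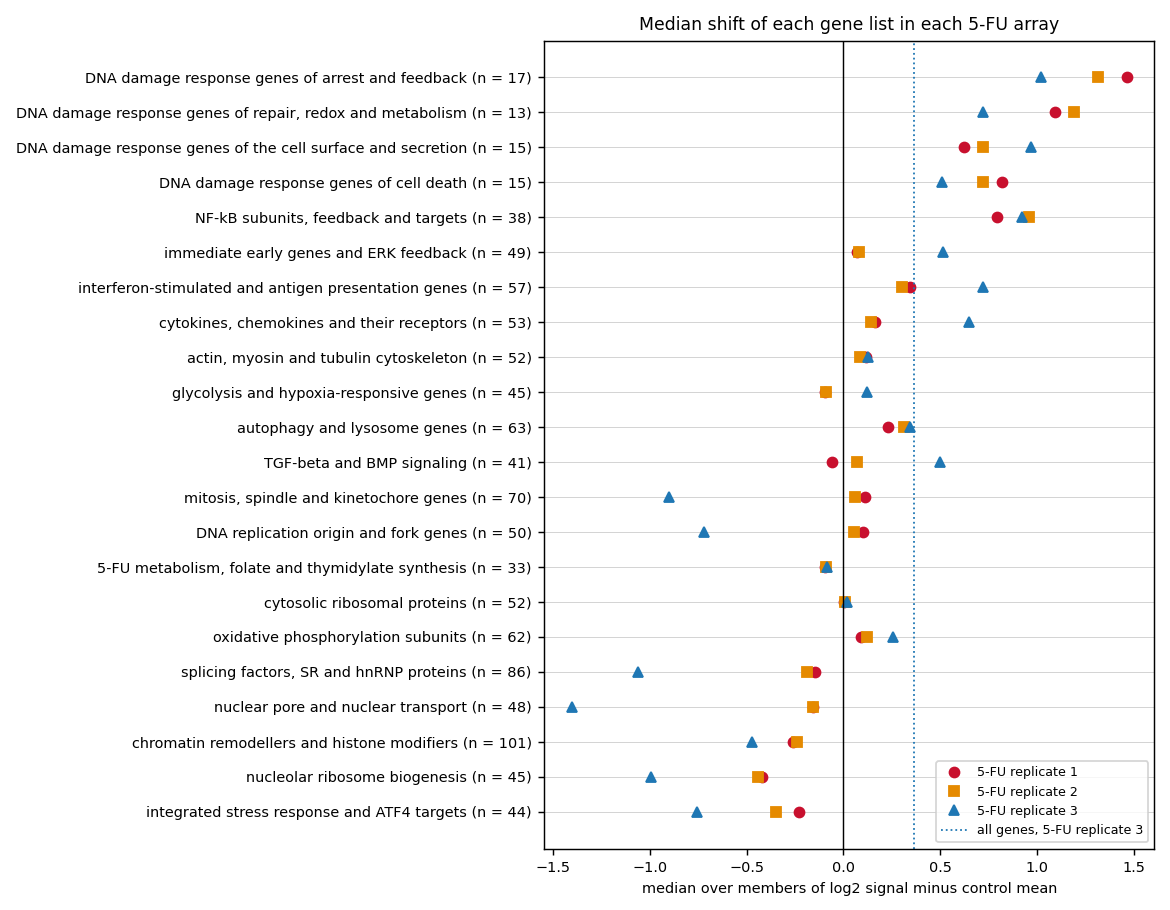
Median over the members of each of 22 gene lists of the log2 signal minus the control mean, for 5-FU replicates 1 (circle), 2 (square) and 3 (triangle), with a dotted line at the median of all genes in replicate 3 (0.366). Replicates 1 and 2 lie close together throughout, and replicate 3 lies far below them for the nuclear pore (-1.40), mitosis (-0.90) and splicing (-1.06).

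Without replicate 3 a further 1015 genes passed that did not pass with it. In 642 of them replicate 3 lay within 0.5 of the control mean, and in 625 it lay on the other side of that mean from the other 5-FU arrays. The genes were chosen by their calls with and without replicate 3, so these counts follow largely from that choice. FAS, the death receptor of the CD95 ligand, gave the largest rise of this kind, with 11.34 and 11.13 in replicates 1 and 2, 7.97 in replicate 3 and 7.998, 7.72 and 7.77 in the controls. Its log2 fold change was 2.32 ± 0.75 with all arrays (adjusted p = 0.11) and 3.41 without replicate 3 (adjusted p = 2.1e-04). GCH1, the first enzyme of tetrahydrobiopterin synthesis, kept all 5-FU arrays above the controls, with 12.05, 11.94 and 10.27 against 10.01, 9.93 and 10.03, and missed the threshold (adjusted p = 0.059). Among decreases, NTHL1, a glycosylase of base excision repair, read 7.31, 7.67 and 8.61 with 5-FU against 8.71, 8.77 and 8.97, and PYCR3, of proline synthesis, 7.16, 7.26 and 8.30 against 8.35, 8.31 and 8.40. In both, replicate 3 lay just under the lowest control and the other 5-FU arrays further below.

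**Figure D5:**
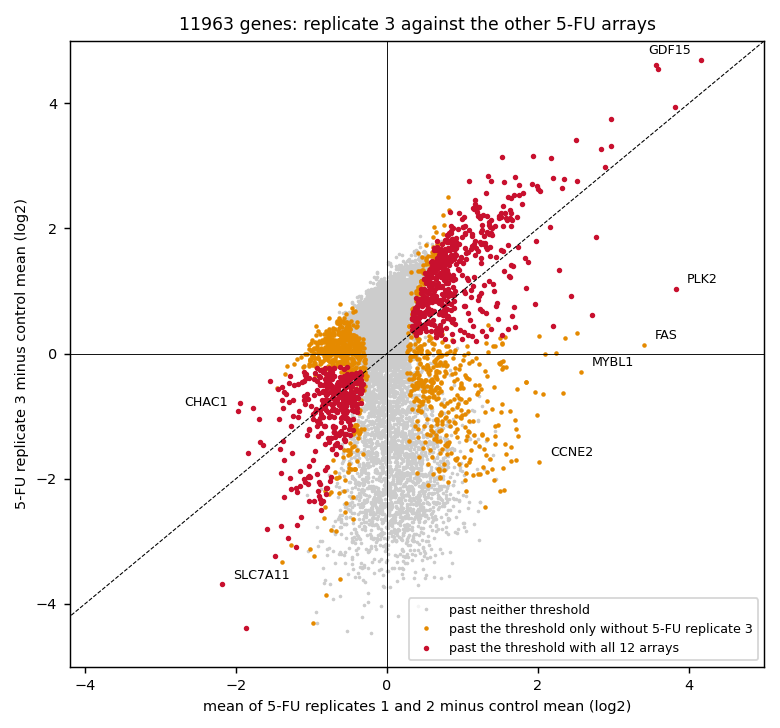
Each point is a gene, with the mean of 5-FU replicates 1 and 2 minus the control mean on the horizontal axis and 5-FU replicate 3 minus the control mean on the vertical axis (both log2), and the dashed line marks equality. Genes past the threshold with all 12 arrays (red) have the same sign in replicate 3, and those past it only without replicate 3 (orange) lie within 0.5 of 0 in replicate 3 for 642 of 1015 genes, as FAS and MYBL1 do, and CCNE2 lies well below 0. The colours were set by calls with and without replicate 3, so these positions follow largely from that choice.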

How the data were processed

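Expression was measured on Affymetrix HG-U133A 2.0 arrays, 1 per sample, from RNA extracted with TRIzol and amplified from the poly(A) tail. The deposited values are log2 signals per probe set that the authors made with RMA (background correction, quantile normalization across arrays and summarization). The methods of the study name GeneSpring GX for this step and the submitters' processing notes name Affymetrix Expression Console. The number of arrays limits the precision, and a shared normalization can spread the deviation of 1 array over the others.

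Of 22277 probe sets 62 array controls were left out. A group mean was fitted to each of the 4 groups over all 12 arrays with limma 3.58.1 (R 4.3.3), and 5-FU was compared with control by the moderated two-sided test with Benjamini-Hochberg adjustment over 22215 probe sets. The fit was tested on simulated data with known changes. Gene symbols came from the annotation of the array, and a comparison by gene ID with RefSeq changed none of them: 19064 probe sets named 1 gene, 1043 named several and 2108 none, and where several probe sets named a gene the brightest on average was used. Replicate numbers were not used as a block. Figures and counts were made with Python 3.11.15 (pandas 2.3.3, matplotlib 3.10.9).

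The 51 gene lists and the genes described were chosen with earlier results of these data known. The rule for naming took the 20 largest increases and decreases whose groups did not overlap, the lead gene, up to 5 members past the threshold and up to 3 members that passed only without 5-FU replicate 3 from each list, and the 10 genes at each end of the replicate 3 deviation and of the calls made only without it. Further called members of a list or family, such as the tubulins, HLA genes, DUSP phosphatases and ATF4 targets, were named after their values were seen. Some items are not reported here. Promoters, 250 bases before the start, were taken from RefSeq (GRCh38.p14) for 9563 measured genes. Only the first listed start of each gene was searched, and 4495 further listed starts were not. Motifs were searched on both strands as C/EBP-ATF (TGATGNAA), interferon response core (TTTC, any 2 bases, TTTC), E-box and NF-kB consensus. The E-box lay in 5 of 37 promoters of ribosome biogenesis genes (8.34% of all promoters).

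Alternatives were other normalizations, filters, weights, covariates and tests, the median over probe sets, the replicate number as a block and leaving out arrays, 19 settings in all.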

Additional observations from a re-analysis of the deposited data

Results flagged for a closer look

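The poly-A spike-in controls, which the comparison itself did not use, averaged a log2 signal of 9.4664 over 24 probe sets in 5-FU replicate 3, above the 8.22 and 8.36 of its replicates and above the highest control array (8.97). A fit with this signal as a covariate called 2812 genes higher and 2404 lower, against 517 and 355 without it. Whether the difference caused any of the results was not tested.

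Probe sets that name no gene or several genes were tested in the same fit but are outside the counts of genes. Of 3151 such probe sets, 68 were higher (2.16%) and 101 lower (3.21%) with 5-FU by limma.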

How the results depend on the processing

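The number of genes called depended on the spread that was assumed, while no named gene past the threshold changed sign in any of the 19 settings. In several settings the sign could not change, because the log2 fold change is the main one by construction. These were the 6 arrays alone, the replicate block, the trended prior, the filter and the methods' tests. The fits without 5-FU replicate 3 likewise share 1 estimate. Against 517 higher and 355 lower (237 and 78 past 2-fold), array weights, whose estimation stopped before it converged, gave 3232 and 3306, a covariate of the poly-A signal 2812 and 2404 (428 at least 2-fold lower), and leaving out both 5-FU replicate 3 and TQ+5-FU replicate 2 gave 1782 and 1608. The 6 arrays of the comparison alone gave 82 and 21 (81 and 17 past 2-fold), and 1876 and 1688 without 5-FU replicate 3. The methods' t-test gave 808 and 628 unadjusted, and 83 and 86 (42 and 12 past 2-fold) after Benjamini-Hochberg, and the one-way test with Tukey's HSD gave 43 at least 2-fold lower. Leaving out 1 array at a time gave 245 to 986 higher and 148 to 899 lower, with 155 to 330 at least 2-fold higher and 40 to 109 at least 2-fold lower. Without a fold limit, leaving out 5-FU replicate 3 gave the most calls, and past 2-fold leaving out 5-FU replicate 1 did. Fewer arrays entered these fits, and other causes were not tested. Quantile normalization, centring each array on its median, a filter on the dimmest 30% of probe sets, a trended prior and the median over probe sets kept all 4 counts within 1.5 times. Of 51 lists 21 had a median above that of all genes, and 20 to 27 under the alternatives. The median over all genes itself moved from 0.091 to between -0.013 and 0.153.

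Of 167 named genes that passed, 167 also passed without 5-FU replicate 3, 105 without control replicate 1, 105 without control replicate 2, 114 without control replicate 3, 46 with the 6 arrays alone and 37 by the methods' t-test. With the replicate number as a block, 375 genes were higher and 247 lower (210 and 63 past 2-fold). The deviations of equally numbered control and 5-FU arrays correlated at 0.611, -0.0319 and 0.613. Control replicate 1 with 5-FU replicate 2 gave 0.598, and the other unequal pairs -0.63 to 0.0533. These deviations are from the group mean, so those within a group cancel out. With 5-FU replicate 3 far from its replicates, 5-FU replicates 1 and 2 must deviate alike. The correlations therefore cannot show whether equal numbers pair the arrays, and the numbers were not taken to pair them.

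Signs turned only in genes that did not pass with all arrays. Over leaving out 1 array, or 5-FU replicate 3 with TQ+5-FU replicate 2, the log2 fold changes ranged from -0.938 to 1.224 for ANXA1, -1.908 to 0.414 for HMGN5, -0.265 to 1.388 for CCNG1, -0.051 to 0.762 for DDIT3, -0.108 to 0.485 for EPCAM, -0.068 to 0.166 for CDH1 and -0.066 to 0.162 for PTPRC. The comparison's own arrays without 5-FU replicate 3 gave 1.224 for ANXA1, 0.414 for HMGN5 and -0.068 for CDH1. With array weights ANXA1 was at 1.112, HMGN5 at 0.207 and CDH1 at -0.063, and with quantile normalization CDH1 was at -0.015 and PTPRC at -0.052.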

Other observations

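Some further members of the lists had clear values of their own. IDH2, the mitochondrial isocitrate dehydrogenase, read 8.58, 8.60 and 8.73 in the controls and 9.34, 9.56 and 10.42 with 5-FU, a rise of 1.14 ± 0.25 (adjusted p = 0.021). SIRT2, a cytoplasmic deacetylase of tubulin and histones, rose by 0.96 ± 0.22 (adjusted p = 0.028), from 8.38, 8.43 and 8.50 to 9.11, 9.08 and 9.97. In both genes every 5-FU array lay above every control. TOB1, an antiproliferative protein that recruits deadenylases, rose by 0.73, and ZFP36L1, which sends mRNAs with AU-rich elements to decay, fell by 0.48. The zinc importers SLC39A14 and SLC39A7 fell, with log2 fold changes of -0.83 and -0.65, and SLC39A14 read 11.49, 11.51 and 11.50 in the controls and 10.96, 10.92 and 10.11 with 5-FU. JAG1, a ligand of Notch, fell by 0.75 ± 0.16 (adjusted p = 0.021).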
